A study of Mus musculus with 4 samples.

Results

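Hyaluronan turnover was followed through 8 genes in mouse oligodendrocytes with and without the long noncoding RNA lncOL1: the cell-surface hyaluronidase gene Tmem2, the hyaluronidase genes Hyal1, Hyal2 and Hyal3, the synthase genes Has1, Has2 and Has3, and the receptor gene Cd44. The 8 were taken by symbol from the 23435 gene symbols with usable values in the sample tables, and each matched 1 row. They were picked from the function of their proteins, with Tmem2 at the head because it was already known to be lower in the knockout libraries. The difference between knockout and control is therefore described for the 8 genes without a p-value, and nothing rests on it.

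Oligodendrocyte precursor cells taken from mice were kept for 1 day in T3, the thyroid hormone that starts their differentiation in culture, and total RNA was sequenced. The control group held 2 samples, whose shared genotype label covers both lncOL1+/+ and lncOL1+/-, with no genotype for each sample. The knockout group held 2 samples labelled lncOL1-/-. Every sample was of mixed strain background and had the same T3 treatment. The age of the mice, the part of the locus that was removed and whether samples came from separate animals or cultures are not stated in the labels, so p-values measure the spread between these samples only, and that spread between samples may be technical. lncOL1, listed as 9630013A20Rik, stood at 28.9 and 34.0 FPKM (fragments scaled to transcript length and to the mapped fragments of the library) in the control libraries and at 5.54 and 5.06 in the knockout libraries, which goes with the labels.

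Hyaluronan is a long, unbranched sugar polymer of the space between cells. Synthases in the cell membrane build it from 2 activated sugars, hyaluronidases cut it, and receptors such as Cd44 bind it at the cell surface. In the brain it carries the chondroitin sulfate proteoglycans of the matrix, and its accumulation in demyelinated lesions is known to hold back the maturation of oligodendrocyte precursors.

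The libraries carried oligodendrocyte lineage genes along with RNA of other glia. The lineage factors Olig1 and Sox10 lay between 435.6 and 584.2 FPKM in all 4 libraries, and the myelin gene Mbp stood at 2683 and 2655 FPKM in control against 1501 and 1520 in knockout. The astrocyte genes Gfap and S100b, the most abundant of 8 on that list, lay between 185.1 and 236.6 FPKM. The least abundant of the 8, Gja1, named after its values were seen, had a mean of 2.85 FPKM over the 4 libraries. Microglia genes were low, with Tyrobp and Laptm5 at 1.43 to 1.88 FPKM in control and 3.81 to 4.61 in knockout, and the endothelial genes Pecam1 and Flt1 did not pass 0.180 FPKM in any library. Of 7 neuronal genes Map2, at 89.1 to 106.1 FPKM, and Tubb3, at 27.1 to 28.2, were the most abundant, and glia also express both. The other neuronal genes were Snap25 at 1.001 to 1.63 FPKM, Syt1 at 0.426 to 0.695, Stmn2 at 0.0485 to 0.226, Rbfox3 at 0.0667 to 0.182 and Neurod6, listed at 0 in all 4 libraries, all 5 named after their values were seen. The number of genes at 1 FPKM or more was 11284 to 11357 per library.

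The 8 genes fell into an expressed set and a barely detected set. Hyal2, Tmem2 and Cd44 had means of 12.5, 10.6 and 7.03 FPKM over the 4 libraries. The next gene in order, Has2, had a mean of 0.907 FPKM, followed by Has3 at 0.553, Hyal3 at 0.516, Hyal1 at 0.462 and Has1 at 0.105. FPKM is scaled to transcript length, so these levels can be set beside each other. The libraries of Has3, Hyal3 and Hyal1 overlapped, so that the order of these 3 genes is not separated by their spread, whereas every library of Has1 was below every library of the other 7 genes. Only genes whose mean was 1 FPKM or more entered the test across the transcriptome, which leaves Hyal2, Tmem2 and Cd44 of the 8.

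**Figure D1:**
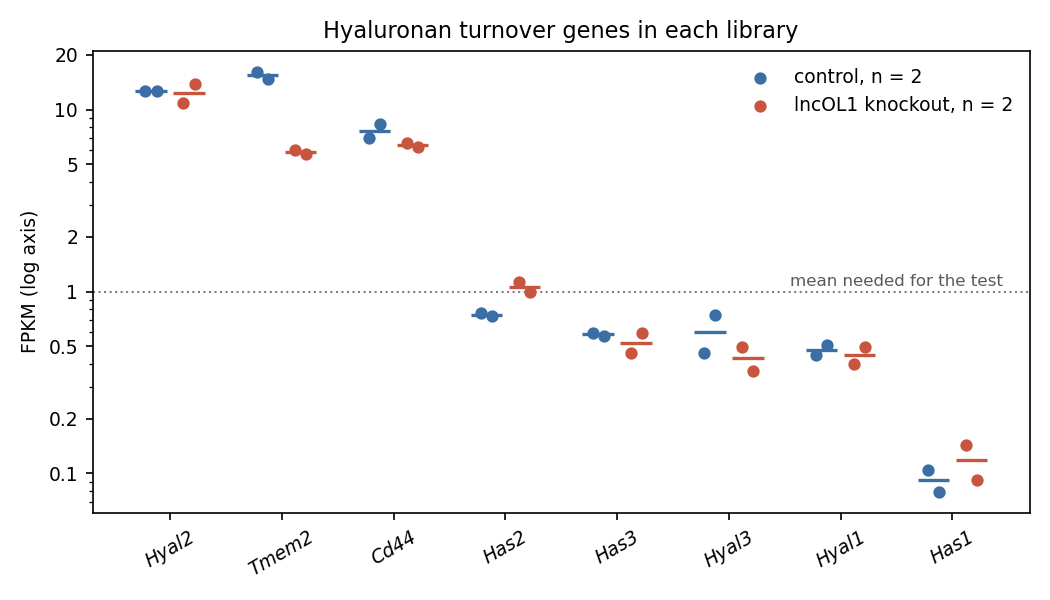
FPKM of the 8 hyaluronan turnover genes (log axis), ordered by mean level; points are libraries, short lines are group means, n = 2 per group, and the dotted line is the mean of 1 FPKM needed for the test. Tmem2 is the gene whose knockout libraries (5.999 and 5.69) lie far below its control libraries (16.2 and 14.7), and 5 genes lie around or below 1 FPKM.

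Tmem2 encodes a membrane-anchored protein reported to cut hyaluronan outside the cell, and its current symbol is Cemip2. It stood at 16.2 and 14.7 FPKM in control against 5.999 and 5.69 in knockout. The groups were far apart, with the lower control library above the higher knockout library by a wide margin. The group means were 15.4 ± 1.04 and 5.84 ± 0.218 FPKM (SD, n = 2 each), so the control mean was 2.64 times the knockout mean. On the log2(FPKM + 1) scale, which understates changes of low genes, the difference was -1.26 (SE 0.079). For Tmem2 the authors' deposited table, which pools each group, lists 15.9 FPKM (control) and 5.84 FPKM (knockout). Its log2 difference ranked 28th from the bottom among 11361 tested genes, and among genes called lower it was the 7th largest fall. Because Tmem2 was chosen as a gene already known to be lower in the knockout libraries, these ranks are a description only. The summed level of 8 myelin markers was lower in the same libraries, at 8301 to 8650 FPKM in control and 6345 to 6567 in knockout. Of the 8, limma called Mbp lower (log2 fold change -0.82, adjusted p = 0.00504), where 0.783% of all tested genes were called lower. An unadjusted p under 0.05 was found for 4 that were lower and 1 that was higher. The share of all tested genes at that unadjusted level is not given, so these counts are a description only. The part of the shift in myelin genes in the Tmem2 values was not tested.

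Tmem2 lies on chromosome 19, 21778340 to 21858360 (mm10), and its GENCODE vM21 model is on the plus strand with 5 transcripts, 3 of them protein coding. The gene-level FPKM sums over transcripts, so isoforms were not compared. Within 500 kb of it 3 other genes were tested, and limma called 0 of them, beside 1.31% of all tested genes. Zfand5, which encodes a zinc finger protein and is named after its values were seen, was the 1 neighbour with an unadjusted p under 0.05, and the authors' deposited table calls it. It stood at 17.0 and 19.3 FPKM in control against 14.1 and 14.9 in knockout, a log2 difference of -0.30 with a standard error of 0.085 (adjusted p = 0.180 by limma). Abhd17b, a depalmitoylating enzyme gene, had a log2 fold change of -0.20 (limma adjusted p = 0.419), and that of 1110059E24Rik was -0.01. With samples of mixed strain background, strain differences at a locus and the knockout cannot be told apart.

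**Figure D2:**
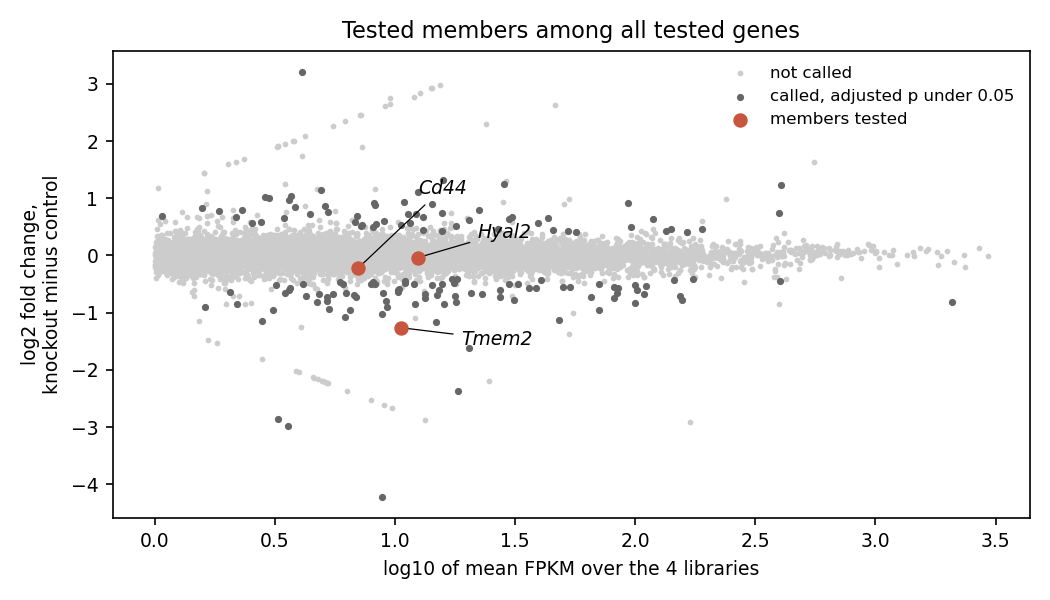
Each of the 11361 tested genes by mean level (log10 of FPKM) and log2 fold change, knockout minus control; dark points are genes with a limma adjusted p under 0.05 and red points are the 3 tested members. Tmem2 at -1.26 lies in the lower fringe, and Hyal2 at -0.04 and Cd44 at -0.22 lie in the dense middle.

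Lrrc16a, Ddc, Rgs16 and Lpar1 were among the 5 tested genes whose profile over the 4 libraries was most like that of Tmem2. Likeness was the root mean square difference of log2(FPKM + 1), centred on each gene's own mean, and was 0.047 for Lrrc16a, 0.074 for Ddc, 0.098 for Rgs16 and 0.11 for Lpar1. Since the profile of Tmem2 is a fall, genes near it have to fall as well, and the likeness over 4 samples is a description. Lrrc16a, which encodes a regulator of actin capping, ran almost on top of Tmem2, with 15.8 and 15.0 FPKM in control against 6.25 and 5.38 in knockout. The enzyme gene Ddc was the most abundant of the 5, at 67.2 and 65.7 FPKM in control against 30.1 and 29.4 in knockout. Rgs16, a regulator of G protein signalling, stood at 8.97 and 8.64 FPKM in control against 3.77 and 3.54 in knockout, and Lpar1, a receptor of lysophosphatidic acid, at 20.02 and 21.8 against 9.49 and 8.06.

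**Figure D3:**
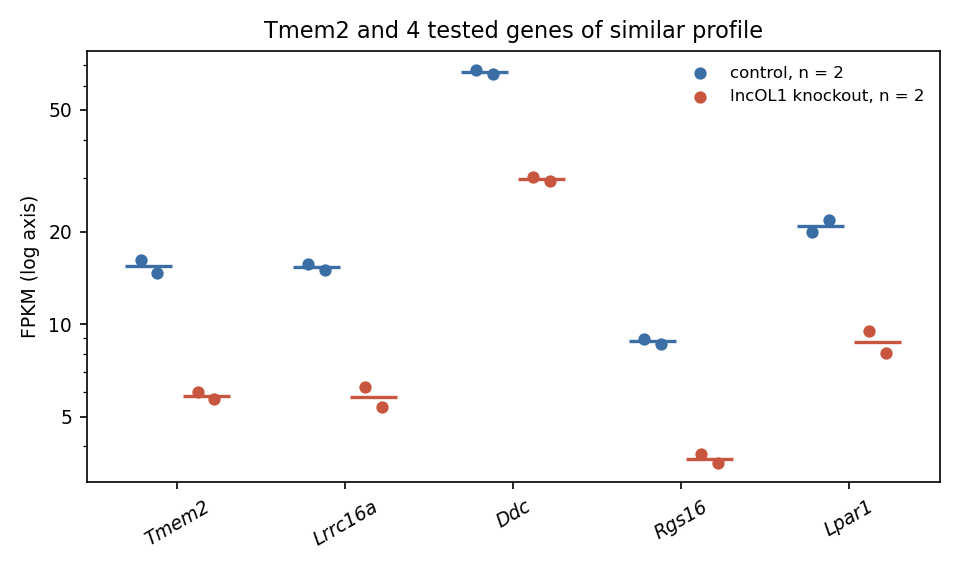
FPKM (log axis) of Tmem2 and of 4 of the 5 tested genes closest to its profile, in the order of likeness; points are libraries, short lines are group means, n = 2 per group. In each gene both knockout libraries lie below both control libraries by a similar distance on the log axis, which the choice of the genes fixes.

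Among the classical hyaluronidases only Hyal2 was expressed above 1 FPKM. Hyal2 encodes an enzyme held at the cell surface that starts the cutting of long hyaluronan chains. It stood at 12.6 FPKM in both control libraries and at 10.8 and 13.8 in the knockout libraries, so the knockout values lay on either side of the control values. The log2 difference was -0.04 (SE 0.11), and it turned to 0.12 without knockout replicate 1 and was -0.20 without knockout replicate 2. Hyal1 encodes the lysosomal enzyme that completes the digestion, and its libraries gave 0.446 and 0.506 FPKM in control against 0.398 and 0.498 in knockout. Hyal3, a relative of less certain activity, gave 0.461 and 0.744 FPKM in control against 0.494 and 0.364 in knockout. In both genes the groups overlapped.

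The 3 Hyal genes lie side by side on chromosome 9 within 18.2 kb, all on the plus strand: Hyal2 from 107569163 to 107572778, Hyal1 from 107576952 to 107580133 and Hyal3 from 107581296 to 107587359. Although they are neighbours, the level of Hyal2 was 24.9 to 28.2 times that of Hyal1 and 16.9 to 38.0 times that of Hyal3 within single libraries. Hyal3 overlaps the row of Nat6, an acetyltransferase gene at 3.48 to 4.51 FPKM. In GENCODE vM21 the models of Hyal1 (to 107581710) and Hyal3 (from 107580818) also overlap each other. How reads were shared between these genes is not stated in the labels, so the levels of Hyal3 and Hyal1 are uncertain.

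The balance between the expressed hyaluronidases differed between the groups. Within each library, Tmem2 was 1.28 and 1.17 times Hyal2 in control and 0.553 and 0.412 times Hyal2 in knockout, so Tmem2 was the more abundant of the pair in each control library and Hyal2 in each knockout library. Tmem2 made up 54.5% and 51.5% of the summed FPKM of the 4 hyaluronidase genes in control, and 33.8% and 27.9% in knockout. That sum was 29.1 ± 0.790 FPKM for control libraries against 19.1 ± 1.87 for knockout libraries (SD, n = 2 each). Because each of these measures contains Tmem2, they restate its lower level and are not separate evidence of it.

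The synthase genes were low throughout. Has2, which encodes the synthase of very long chains, stood at 0.761 and 0.735 FPKM in control against 1.13 and 0.999 in knockout. Both knockout libraries were above both control libraries, with means of 0.748 ± 0.018 and 1.07 ± 0.094 FPKM (SD, n = 2 each), a ratio of 1.42. Its mean of 0.907 FPKM was just under the limit of the test. In the fits with a lower limit or none, Has2 was tested and not called. For Has2 the authors' deposited table lists 0.819 FPKM (control) and 1.16 FPKM (knockout), without a call. Has2 (chromosome 15, 56665627 to 56694546, minus strand) overlaps the antisense gene Has2os, which was listed at 0.761 to 1.37 FPKM. Whether counting used strand is not stated in the labels, so reads of these 2 genes may not be told apart.

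Has3 encodes a synthase of shorter chains, and its values were 0.595 and 0.568 FPKM in control against 0.457 and 0.591 in knockout, with overlapping groups. Has1 was the lowest of the 8, with 0.104 and 0.0795 FPKM in control against 0.144 and 0.0923 in knockout, also overlapping. The summed level of the 3 synthases was 1.46 and 1.38 FPKM in control against 1.73 and 1.68 in knockout. Has2 made up 52.1% and 53.2% of it in control and 65.3% and 59.4% in knockout. At these levels the number of reads behind a value is not known, since the files hold no counts.

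**Figure D4:**
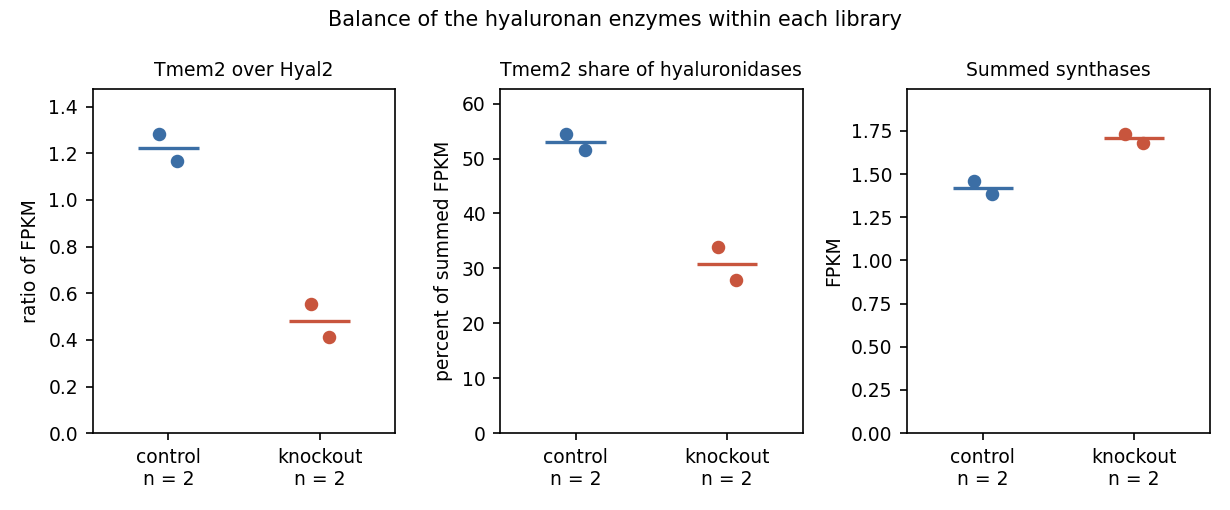
Tmem2 over Hyal2 (ratio of FPKM), the share of Tmem2 in the summed FPKM of Tmem2, Hyal1, Hyal2 and Hyal3, and the summed FPKM of Has1, Has2 and Has3; points are libraries, short lines are group means, n = 2 per group. The ratio is above 1 in both control libraries and below 1 in both knockout libraries, and the synthase sum is 1.46 and 1.38 in control and 1.73 and 1.68 in knockout.

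Cd44 encodes the main cell-surface receptor of hyaluronan. It stood at 6.95 and 8.36 FPKM in control against 6.57 and 6.22 in knockout. The knockout libraries were both below the control libraries, but the gap between the groups was smaller than the distance between the control libraries. The means were 7.66 ± 0.996 and 6.39 ± 0.248 FPKM (SD, n = 2 each) and the log2 difference was -0.22 (SE 0.097). It was -0.11 without control replicate 2 and -0.34 without control replicate 1. For Cd44 the authors' deposited table lists 8.17 FPKM (control) and 6.64 FPKM (knockout), without a call. Astrocytes and microglia are also known to make Cd44. The summed level of the 8 astrocyte markers was 738.3 to 782.3 FPKM in control and 695.8 to 730.7 in knockout. Limma called 0 of these 8, beside 1.31% of all tested genes. An unadjusted p under 0.05 was found for 2, both lower, a count that is a description only. The summed level of the 10 microglia markers was 8.80 to 9.63 FPKM in control and 17.4 to 23.4 in knockout. The part of these cells in the Cd44 values was not tested, and in bulk RNA fewer cells of a type and less RNA per cell cannot be told apart. Cd44 has 9 annotated transcripts in GENCODE vM21, and its known splice forms cannot be read from a gene-level value.

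In the test across the transcriptome, of 3 members 1 was called lower by limma (Tmem2) and 0 higher, where 0.783% of all tested genes were called lower and 0.528% higher. Tmem2 was known to be lower when the members were assembled, so nothing is read from that count. The call was absent without knockout replicate 2, where 0 of 3 were called, and with no filter on low values, where 0 of 8 were called. The authors' deposited table tested 7 of the 8 and calls 1 lower (Tmem2) and 0 higher, beside 4.04% and 1.74% of all genes it tested. Of the 3 tested members Tmem2 and Cd44 were below control in both knockout libraries, as were 20.7% of all tested genes, and 0 were above, as were 22.6%. Of the 5 members under the level for the test Has2 was above control in both knockout libraries and 0 were below, where 20.6% and 12.4% of all genes under that level and above 0 in some library were. The median log2 difference of the 3 tested members was -0.22, the value of Cd44 itself, beside 0.005 over all tested genes. Since Tmem2 was chosen as a lower gene, nothing is read from this median or from the members below control.

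The rest of the hyaluronan pathway showed no called gene. Of 45 further genes of the pathway, 23 reached the level for the test, 15 were below it and 7 were listed at 0 in all 4 libraries, among them the sperm hyaluronidase gene Spam1 and Hyal4. Limma called 0 of the 23, while it called 1.31% of all tested genes at the same adjusted p. An unadjusted p under 0.05 was found for 2 that were higher and 0 that were lower. The share of all tested genes at that unadjusted level is not given, so nothing is read from these counts. Log2 fold changes were positive in 10 and negative in 13, with a median of -0.01. In 4 of the tested genes both knockout libraries were above both control libraries and in 6 below, against the same 22.6% and 20.7%. The authors' deposited table calls 3 of the 28 pathway genes it tested (Ugdh, Cemip and Ncan), and 5.78% of all genes it tested.

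Genes that supply the activated sugars for hyaluronan included the pathway gene with the smallest adjusted p, 0.121. Ugdh, which makes UDP-glucuronic acid, stood at 30.2 and 29.7 FPKM in control against 37.6 and 36.1 in knockout. The knockout libraries were above the control libraries by several times the distance within either group (log2 fold change 0.29, SE 0.068), but the gene did not pass adjustment over all genes (limma adjusted p = 0.121). The authors' deposited table gives 29.9 and 36.4 FPKM for Ugdh with q = 0.0107. UDP-glucuronic acid also serves the chondroitin chains and the glucuronidation of small molecules. The log2 fold change was -0.09 for Gfpt1, the entry enzyme of the hexosamine route (limma adjusted p = 0.648), and -0.01 for Ugp2, which makes UDP-glucose (limma adjusted p = 0.973).

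Among the lysosomal enzymes that take hyaluronan fragments apart, Hexa, a hexosaminidase subunit gene, stood at 13.3 and 13.2 FPKM in control against 16.3 and 13.2 in knockout, so that 1 knockout library was high (log2 fold change 0.14, limma adjusted p = 0.643). Gusb, the glucuronidase gene, stood at 9.38 and 7.84 FPKM in control against 10.4 and 9.25 in knockout, with overlapping groups (log2 fold change 0.17, limma adjusted p = 0.534).

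Receptors other than Cd44 were scarce. Hmmr, a hyaluronan-binding protein best known from the mitotic spindle, was the only 1 of 7 that reached the test, with 1.77 and 1.76 FPKM in control against 1.35 and 1.64 in knockout (log2 fold change -0.15, limma adjusted p = 0.621). Stab1, a scavenger receptor of macrophages, stood at 0.352 and 0.301 FPKM in control against 0.510 and 0.569 in knockout. Layn, which encodes layilin, stood at 0.409 and 0.518 FPKM in control against 0.273 and 0.443 in knockout, with overlapping groups. The part of microglia in the Stab1 values was not tested.

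The hyaluronan-binding matrix genes Bcan and Ncan were the most abundant of the pathway, while 10 of the 15 matrix genes were below the level for the test. Bcan, which encodes brevican, stood at 426.7 and 393.5 FPKM in control against 386.5 and 432.5 in knockout, and its log2 fold change was 0.00 to 2 decimals (SE 0.086, limma adjusted p = 0.992). Ncan, which encodes neurocan, stood at 249.8 and 254.2 FPKM in control against 226.8 and 235.1 in knockout, a log2 difference of -0.13 with a standard error of 0.067 (adjusted p = 0.495 by limma). For Ncan a q of 0.0318 stands in the authors' deposited table. Vcan, which encodes versican, had a log2 fold change of -0.02 (limma adjusted p = 0.95).

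Of 8 genes for partners of the Cd44 protein, 7 were tested and limma called 0, with 0 at an unadjusted p under 0.05. Rdx, which encodes radixin, a linker between Cd44 and actin, stood at 65.7 and 67.9 FPKM in control against 62.0 and 56.6 in knockout (log2 difference, knockout minus control, -0.17; standard error 0.075; adjusted p = 0.393 by limma). The log2 fold change was -0.08 for Nf2, which encodes merlin (limma adjusted p = 0.707), and -0.01 for Adam10, a protease that sheds Cd44 (limma adjusted p = 0.986). A p that misses the threshold with 2 samples per group does not show that a gene was unchanged.

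**Figure D5:**
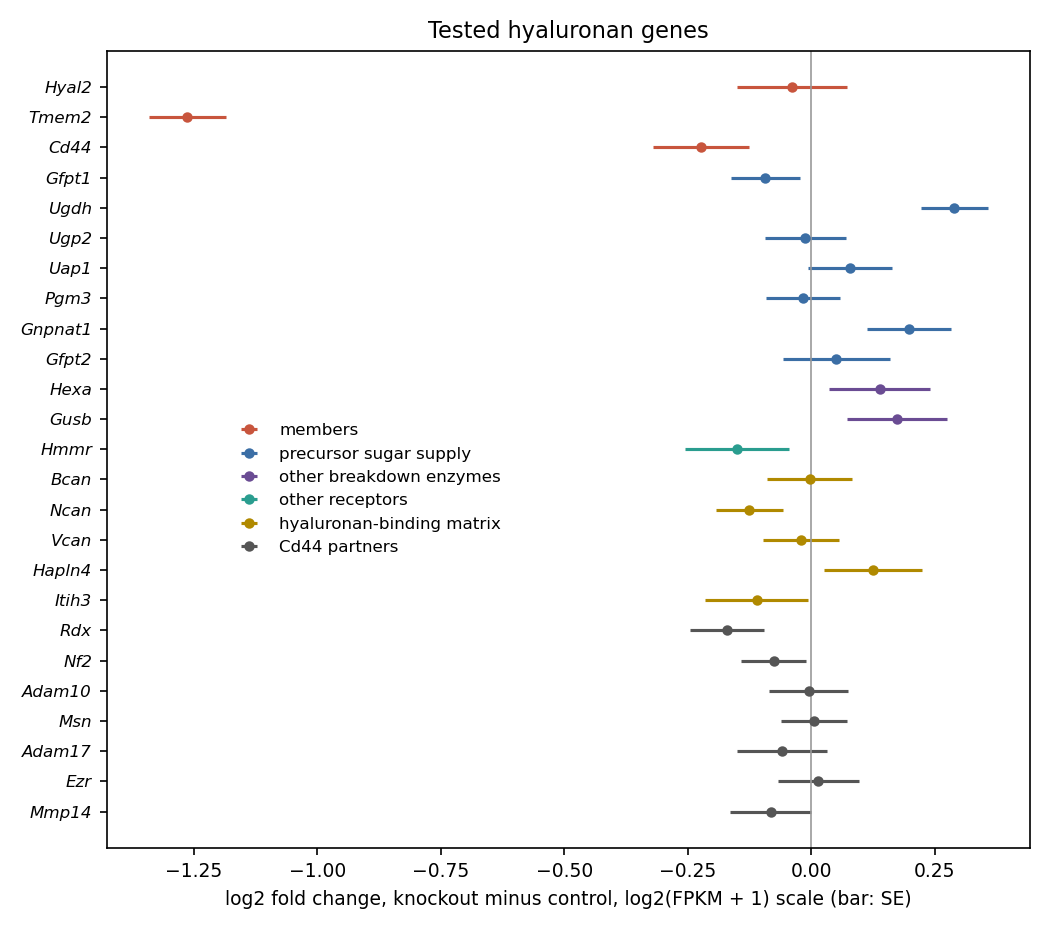
Log2 fold change, knockout minus control, on the log2(FPKM + 1) scale for the 3 tested members and 22 of the 23 tested pathway genes, grouped by role; bars are standard errors from limma, n = 2 per group. Tmem2 lies at -1.26, and every other gene shown lies between -0.22 and 0.29.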

How the data were processed

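RNA of 2 control and 2 knockout samples was compared. Cufflinks and Cuffdiff, TopHat, CASAVA and the mm10 build are listed in the submitters' processing notes, without versions or options. The authors deposited 1 table of gene-level FPKM per sample and a Cuffdiff table with pooled FPKM, log2 ratios, a score, p-values and q-values, per the file headers. The files hold no counts, so depth is unknown, and no count model was used.

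Each sample table had 23931 rows under 23444 symbols. Rows of 1 symbol were summed, and 9 symbols with a failed status were dropped. The 11361 genes whose mean was 1 FPKM or more were fitted as log2(FPKM + 1) with limma 3.58.1 in R 4.3.3 (eBayes with a trend, no covariate), with Benjamini-Hochberg adjustment over all of them. Called means an adjusted p under 0.05. The script was tested on simulated data. Cemip was matched through its synonym 9930013L23Rik and Tmem2 by its older symbol.

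The members and gene lists were chosen with earlier results of these data known. The text names all members, lncOL1, called pathway genes, the 3 most abundant pathway genes of each role, the 2 most abundant markers of each cell type and the 5 genes most like Tmem2. Other names are marked. Some genes that this rule selects are not reported here. Fibroblast and mural markers were also read: of 8, 1 was tested and called higher (Acta2, limma adjusted p = 0.0488), and Col1a1 had means of 0.640 FPKM in control and 0.398 in knockout. Of 4 lineage, 5 precursor and 8 newly formed oligodendrocyte markers limma called 0, 0 and 1 (Neu4, higher), of 8 myelin markers 1 (Mbp, lower), of 10 microglia markers 2 (Tyrobp and Laptm5, higher) and of 3 tested neuronal markers 0. At an unadjusted p under 0.05 the lineage, precursor and neuronal lists had 2, 2 and 1 genes higher and 0 lower, the newly formed list 2 higher and 3 lower, the myelin list 1 higher and 4 lower, the microglia list 4 higher and 0 lower and the astrocyte list 0 higher and 2 lower. Among all tested genes limma called 0.528% higher and 0.783% lower. The share of all tested genes at an unadjusted p under 0.05 is not given, so every count of genes at that level is a description only. Gpr17, Ptprz1, Bcas1 and Fyn had log2 fold changes of 0.15, 0.08, 0.06 and 0.05. The alternatives were other pseudocounts, filters, scalings and variance models, a replicate block and each library left out.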

Additional observations from a re-analysis of the deposited data

How the results depend on the processing

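With 2 samples per group, 0 called genes among 23 pathway genes was also the count under each alternative that kept all 4 libraries. Since 1.31% of all tested genes were called, a list of 23 can easily hold 0 of them, so nothing is read from that count. The number of called members stayed at 1 except with no filter on low values (0) and without knockout replicate 2 (0), so that it ranged from 0 to 1 with each library left out. The number of called genes over the transcriptome, 149, was 4 with no filter and 16 to 42 with each library left out. With the replicate number as a block it was 341, and the block changed no call of a member or pathway gene. Whether the replicate numbers pair the samples is not stated in the labels. Differences between replicates correlated between the groups at r = -0.052 over 11361 genes, a value that cannot decide it, since paired samples need not share a large effect. The difference of Tmem2 stayed between -1.39 and -1.20 and that of Cd44 between -0.34 and -0.11. Small differences changed sign when single libraries were left out, ranging from -0.088 to 0.064 for Ugp2, -0.0020 to 0.28 for Hexa, -0.084 to 0.078 for Bcan, -0.090 to 0.049 for Vcan and -0.077 to 0.067 for Adam10, which was 0.00067 after quantile normalization. With 1 library left out, the lone library of its group is assumed to vary like the other group. The cause of these turns was not tested. Scaling moved the median of all genes by less than 0.01 on the log2 scale. A gene below about 1 FPKM, such as each synthase gene, is limited by unknown depth.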

Other observations

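Of the 15 pathway genes below the level for the test and above 0 in some library, both knockout libraries were above both control libraries in 8 (Cemip, Stab1, Tlr2, Tlr4, Acan, Tnfaip6, Itih4 and Itih5) and below in 2 (Spp1 and Hapln2), where 20.6% and 12.4% of all such genes were. They were named after their values were seen, and have no test here. Tlr4, Acan and Itih4 did not pass 0.172 FPKM in any library. Cemip, which encodes a further hyaluronan-degrading protein related to Tmem2, stood at 0.211 and 0.262 FPKM in control against 0.505 and 0.414 in knockout, a ratio of 1.94. Spp1, which encodes osteopontin, a ligand of Cd44, stood at 0.399 and 0.550 FPKM in control against 0.115 and 0.0881 in knockout. Hapln2, which encodes a link protein of the nodes of Ranvier made by oligodendrocytes, stood at 1.47 and 0.984 FPKM in control against 0.440 and 0.887 in knockout. Tlr2, a receptor of microglia that also responds to hyaluronan fragments, stood at 0.224 and 0.176 FPKM in control against 0.329 and 0.310 in knockout. Cemip is called in the authors' deposited table, where Spp1 and Hapln2 were tested and not called. Tlr2 was not among the pathway genes tested there.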
